A study of Mus musculus with 6 samples.

Results

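The mitochondrial ribosomal protein genes were taken as all gene symbols that begin with Mrpl or Mrps followed by a digit, a rule that uses names and no measured value. It found 76 genes among 23420 in the count tables, 47 Mrpl and 29 Mrps. All 76 had 10 or more counts in 3 or more libraries and were tested, among 12713 genes tested in all. RNA-seq was performed on LSK cells (named for the absence of lineage markers and the presence of Sca-1 and Kit, a fraction that holds the blood stem cells and multipotent progenitors) from mouse bone marrow, with 1 library for each of 6 mice. One group was 3 bcat(ex3)osb mice, whose osteoblasts carry constitutively active β-catenin, and the other was 3 wild-type (WT) littermates. The comparison asks how a signal switched on in the bone-forming cells relates to transcripts of the blood progenitors beside them. The labels give no age, no sex, no promoter that drives the allele and no agent. The sequenced cells are not the cells that the genotype label names.

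Mitochondria keep their own ribosome, the mitoribosome, which translates the few proteins encoded by mitochondrial DNA, all of them core parts of the oxidative phosphorylation complexes. Its RNAs come from mitochondrial DNA, but every one of its proteins is encoded in the nucleus, made in the cytoplasm and imported. The Mrpl genes encode proteins of the large subunit, which forms peptide bonds, and the Mrps genes mostly encode proteins of the small subunit, which reads the messenger RNA. Some are homologues of bacterial ribosomal proteins and others are found only in mitochondrial ribosomes. Blood stem cells are known for a low reliance on oxidative phosphorylation at rest and for a rise in mitochondrial activity as they divide and differentiate.

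Total counts were between 15431235 and 19956774 per library. The members' share of the counts was 0.603%, 0.881% and 0.56% in the libraries of bcat(ex3)osb mice 1, 2 and 3, and it was 0.478%, 0.801% and 0.557% in those of WT mice 1, 2 and 3. Their counts ran from 159 (Mrps36, bcat(ex3)osb mouse 3) to 5664. The libraries differed in a trend with gene length: in the libraries of bcat(ex3)osb mouse 2 and WT mouse 2 short genes were high relative to long ones, and in WT mouse 1 they were low. By Xist and Y-linked counts, bcat(ex3)osb mice 1 and 2 were male and the other 4 mice were female. The series text calls the WT mice littermates, but which mice shared a litter is not given, and the p-values measure the spread between these 6 libraries.

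The members were expressed well above the typical gene of these cells. On the deposited FPKM scale, which divides a count by gene length and library total, the mean level over the 6 libraries ran from 8.68 (Mrps25) to 361.8 (Mrpl33), with a median of 65.9. The median over all genes tested was 12.2, and 74 of 76 members lay above it. The highest levels per length belonged to Mrpl33, Mrpl42 and Mrpl18, all of the large subunit. Mrpl33, a small protein with a bacterial homologue, was at 306, 707 and 281 FPKM in bcat(ex3)osb mice 1, 2 and 3 and at 197, 431 and 249.6 FPKM in WT mice 1, 2 and 3. Mrpl42, found only in mitochondrial ribosomes, averaged 259.8 FPKM, and Mrpl18, a bacterial L18 homologue, averaged 198 FPKM. The lowest were Mrps25, a small-subunit protein specific to mitochondria, at 8.68 FPKM, Mrpl1, a protein of the large subunit's L1 stalk, at 12.1 FPKM, and Mrpl19, a bacterial L19 homologue, at 16.3 FPKM.

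**Figure D1:**
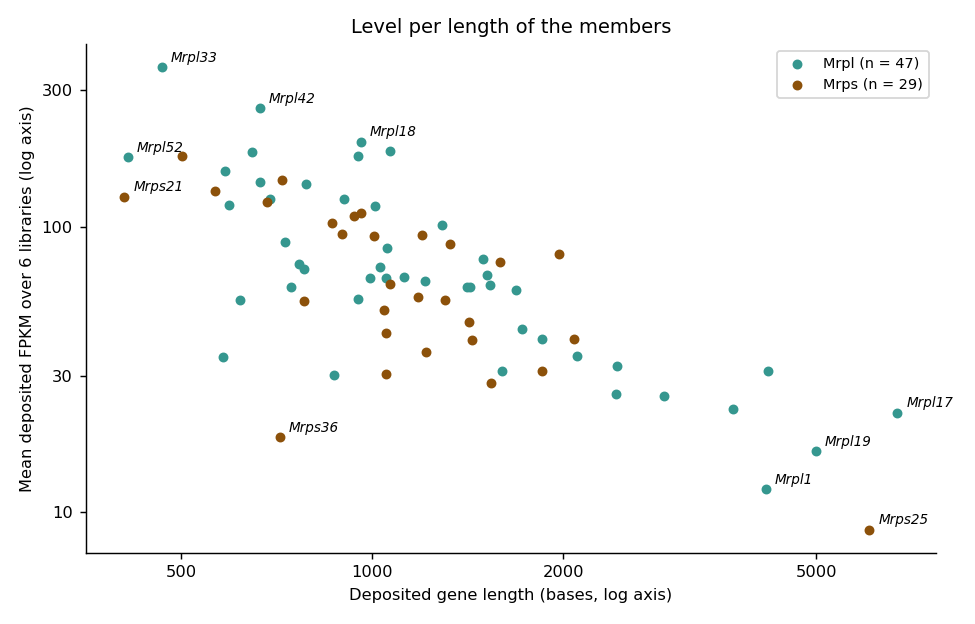
Mean deposited FPKM over the 6 libraries (log axis) against the deposited gene length in bases (log axis) for the 76 members, with 1 point per gene. Levels per length fall as length grows, from Mrpl33 at 361.8 FPKM to Mrps25 at 8.68 FPKM.

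Much of that range in FPKM moved with length. Over the 76 genes, Spearman's rho between length and mean FPKM was -0.68, while between length and mean CPM (counts scaled to library size, not divided by length) it was 0.05. The points share their libraries, and length enters FPKM by construction. In CPM the third quartile of the members was 1.81 times the first, against 2.80 times in FPKM. The CPM extremes were Mrps36 at 13.3 and Mrpl28 at 197. Mrps36 is known as a component of the alpha-ketoglutarate dehydrogenase complex in spite of its name, and it was the least abundant member by CPM. The order of the members by FPKM was nearly fixed from mouse to mouse: Spearman's rho between 2 libraries was 0.936 to 0.988 over the 15 pairs. Every library's FPKM divides by the same lengths, so part of this rho is built in, and none is given here for CPM.

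Many members share a start region with another gene. In GENCODE M21 (GRCm38) the 76 genes lie on 17 chromosomes, and 32 of them (42.1%) have an opposite-strand protein-coding start within 1000 bases, against 10.9% of 21951 protein-coding genes. Several of these neighbours are mitochondrial themselves. Mrpl36 starts 29 bases from Ndufs6 and Mrpl47 starts 615 bases from Ndufb5, both respiratory complex I genes. Mrpl43 starts 779 bases from Twnk, the mitochondrial DNA helicase gene, and Mrps12 starts 172 bases from Sars2, the mitochondrial seryl-tRNA synthetase gene. Mrpl46 and Mrps11, 1 gene from each subunit, form a head-to-head pair whose RefSeq starts are 42 bases apart. Exons of 32 members overlap another gene on either strand, and since no source names the strand setting of the counting, the levels of these members are uncertain. The largest antisense overlaps were 4590 bases between Mrps25 and Nr2c2 and 1962 bases between Mrpl19 and Gcfc2, and Mrps34 shares 1309 bases with Mapk8ip3. Processed copies of such genes elsewhere in the genome can also share reads.

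Promoter windows from RefSeq (GRCm38.p6), 250 bases before to 50 after each start, matched 67 of the 76 members by symbol, with 73 windows. Mrpl15, Mrpl54, Mrpl38, Mrpl13, Mrps34, Mrps28, Mrpl19, Mrps35 and Mrpl4 had no entry. The letters CCGGAAG, which ETS factors such as GABP bind, were found on either strand in 32.9% of member windows, against 17.2% of the windows of all genes tested and 8.9% of all 32851 windows. AAGATGG, the core bound by YY1, was in 17.8%, 7.0% and 6.3%. GCATGCG, the core of NRF1 sites, was in 11%, 6.3% and 3.6%. CCAAT was in 41.1%, 37.7% and 37.4%, and the E box CACGTG, bound by MYC, in 9.6%, 9.9% and 7.2%. Thus the ETS, YY1 and NRF1 letters were more frequent in member windows than in those of all genes tested, and the E box and CCAAT were at about the same share. These are shares of matched letters and not sites of binding. The bases before the start are printed for 3 members: Mrpl52, the member with the largest fold change between genotypes, Mrps9, the member with the smallest p-value, and Mrps12, which shares its start region with Sars2. Capitals mark the matched letters on either strand. The Mrpl52 stretch is chr14:54426659-54426908 on the plus strand and holds AAGATGG and CTTCCGG, the reverse complement of CCGGAAG. The Mrps9 stretch is chr1:42850983-42851232 on the plus strand and holds 1 CCAAT. The Mrps12 stretch is chr7:28741822-28741967 on the minus strand, the 146 bases between its RefSeq start and that of Sars2, and holds 3 CCAAT boxes.
Mrpl52: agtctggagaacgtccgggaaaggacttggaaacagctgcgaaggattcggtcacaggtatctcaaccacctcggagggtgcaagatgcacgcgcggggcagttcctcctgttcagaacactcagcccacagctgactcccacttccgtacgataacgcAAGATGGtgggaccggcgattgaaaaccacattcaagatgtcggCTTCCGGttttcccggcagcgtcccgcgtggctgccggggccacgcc
Mrps9: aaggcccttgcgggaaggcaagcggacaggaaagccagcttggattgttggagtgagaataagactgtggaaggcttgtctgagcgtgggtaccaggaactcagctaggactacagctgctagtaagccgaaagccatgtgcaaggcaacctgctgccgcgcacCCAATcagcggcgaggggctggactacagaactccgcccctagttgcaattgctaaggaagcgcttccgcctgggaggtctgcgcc
Mrps12: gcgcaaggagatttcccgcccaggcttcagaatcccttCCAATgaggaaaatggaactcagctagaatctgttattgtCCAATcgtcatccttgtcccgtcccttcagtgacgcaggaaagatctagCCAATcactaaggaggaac

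The members varied together between mice, and the groups overlapped. Relative to the mean of the 3 WT libraries, the median member stood at 0.06, 0.69 and -0.09 log2 CPM in bcat(ex3)osb mice 1, 2 and 3, and at -0.39, 0.48 and -0.10 in WT mice 1, 2 and 3. Both groups thus held 1 high library, that of mouse 2. The SD of these medians was 0.42 in bcat(ex3)osb and 0.44 in WT mice (n = 3 each). In 69 of the 76 members (90.8%) the libraries of the 2 mice numbered 2 were the highest pair, against 20.6% of all genes tested. The exceptions were Mrps9, Mrps27, Mrps34, Mrps2, Mrpl9, Mrpl50 and Mrps25. The library of WT mouse 1 was the lowest in 66 members (86.8%), against 22.9% of all genes. Both background shares take in genes of every length, while most members are short. In bulk RNA, fewer cells of a type and less RNA per cell cannot be told apart.

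**Figure D2:**
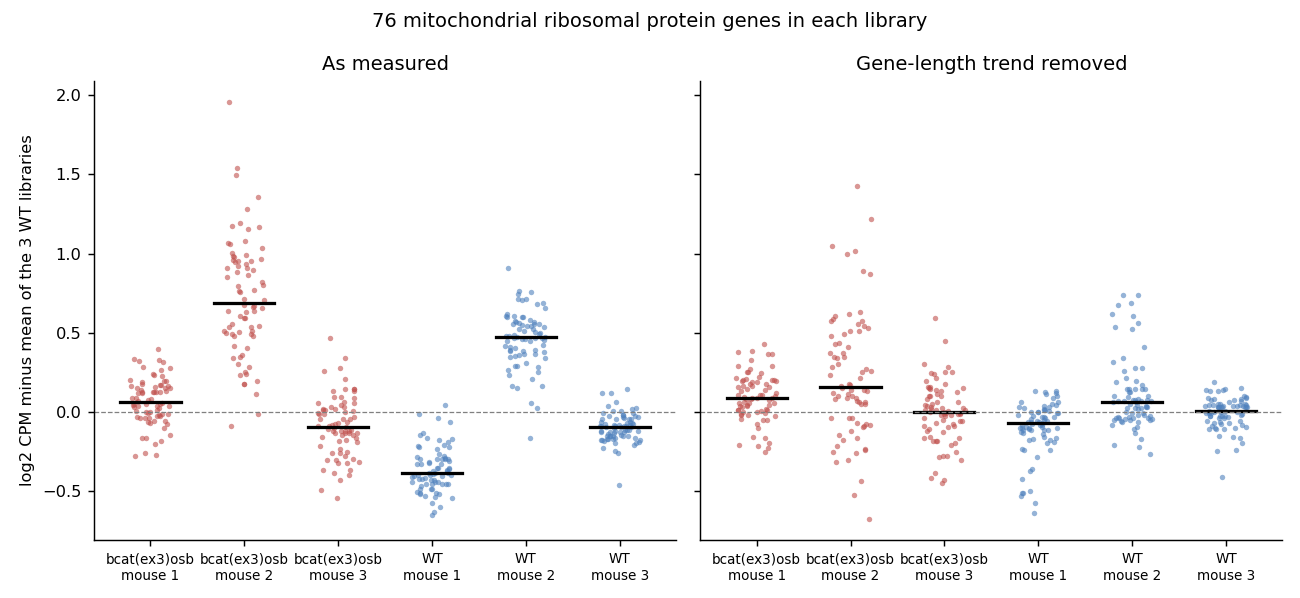
The log2 CPM of each of the 76 members minus its mean over the 3 WT libraries, by library, as measured (left) and with the gene-length trend removed (right). Each point is a gene and each bar the median. As measured, the bars of both mice numbered 2 lie at 0.69 and 0.48 and that of WT mouse 1 at -0.39. With the trend removed all 6 bars lie between -0.07 and 0.16.

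The highest and the lowest mouse of each genotype, a pair chosen for its values, were compared gene by gene. The other gaps within a genotype were smaller, such as 0.06 against -0.09 log2 in the medians of bcat(ex3)osb mice 1 and 3. The CPM ratio of bcat(ex3)osb mouse 2 to bcat(ex3)osb mouse 3 had a median of 1.77 over the members, ran from 1.06 (Mrpl49) to 2.86 (Mrpl33), and was above 1 in all 76. The ratio of WT mouse 2 to WT mouse 1 had a median of 1.82 and was above 1 in 75 of 76, with Mrps2 at 0.863 the exception. The ratio of bcat(ex3)osb mouse 2 to WT mouse 2 had a median of 1.20 and was above 1 in 60 of 76.

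Between genotypes, no member passed the test, and most lay slightly higher in bcat(ex3)osb mice. By edgeR's quasi-likelihood test at an adjusted p under 0.05, 0 of 76 members were called in either direction, as were 0 of all 12713 genes tested, a background of 0% higher and 0% lower. Before adjustment, 0 members had a p under 0.05 in either direction, against 3.42% of all genes higher and 3.13% lower. DESeq2 put 2 members above and 0 below at that unadjusted threshold, where 4.7% and 3.86% of all genes were. After adjustment DESeq2 called 0 members, where 0.811% of all genes were called higher and 0.543% lower. The log2 fold change (bcat(ex3)osb over WT) was positive in 70 members (64 with upper-quartile scaling) and negative in 6, with a median of 0.23, beside 50.2% positive and a median of 0.00 over all genes. It was 0.23 for Mrpl and 0.25 for Mrps genes, and ran from -0.26 (Mrps25) to 1.00 (Mrpl52). The SE of a member's fold change had a median of 0.31, larger than the median fold change. The adjusted p was between 0.772 and 0.993. All 3 bcat(ex3)osb mice lay above all 3 WT mice in 2 members, Mrps9 and Mrps2 (2.63%), where 6.87% of all genes did, and no member lay below in all 3, where 7.67% of all genes did.

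The median rested on single libraries. Without bcat(ex3)osb mouse 2 it was -0.04, with 24 of 76 members positive. Without WT mouse 2 it was 0.47, with all 76 positive, and without WT mouse 1 it was 0.06, with 50 positive. Without mouse 2 of both genotypes, an alternative chosen after seeing the data, it was 0.21 with 70 positive, and 5 members were higher at an unadjusted p under 0.05, where 5.4% of all genes were, and 0 were lower, where 5.9% were. With the sex of the mouse as a term the median was -0.13, with 16 members positive and 0 called. Only bcat(ex3)osb mouse 3 shares its sex with the WT mice, and its median of -0.09 lay inside the WT range of -0.39 to 0.48. Genotype and sex could therefore be separated here only through that 1 library.

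**Figure D3:**
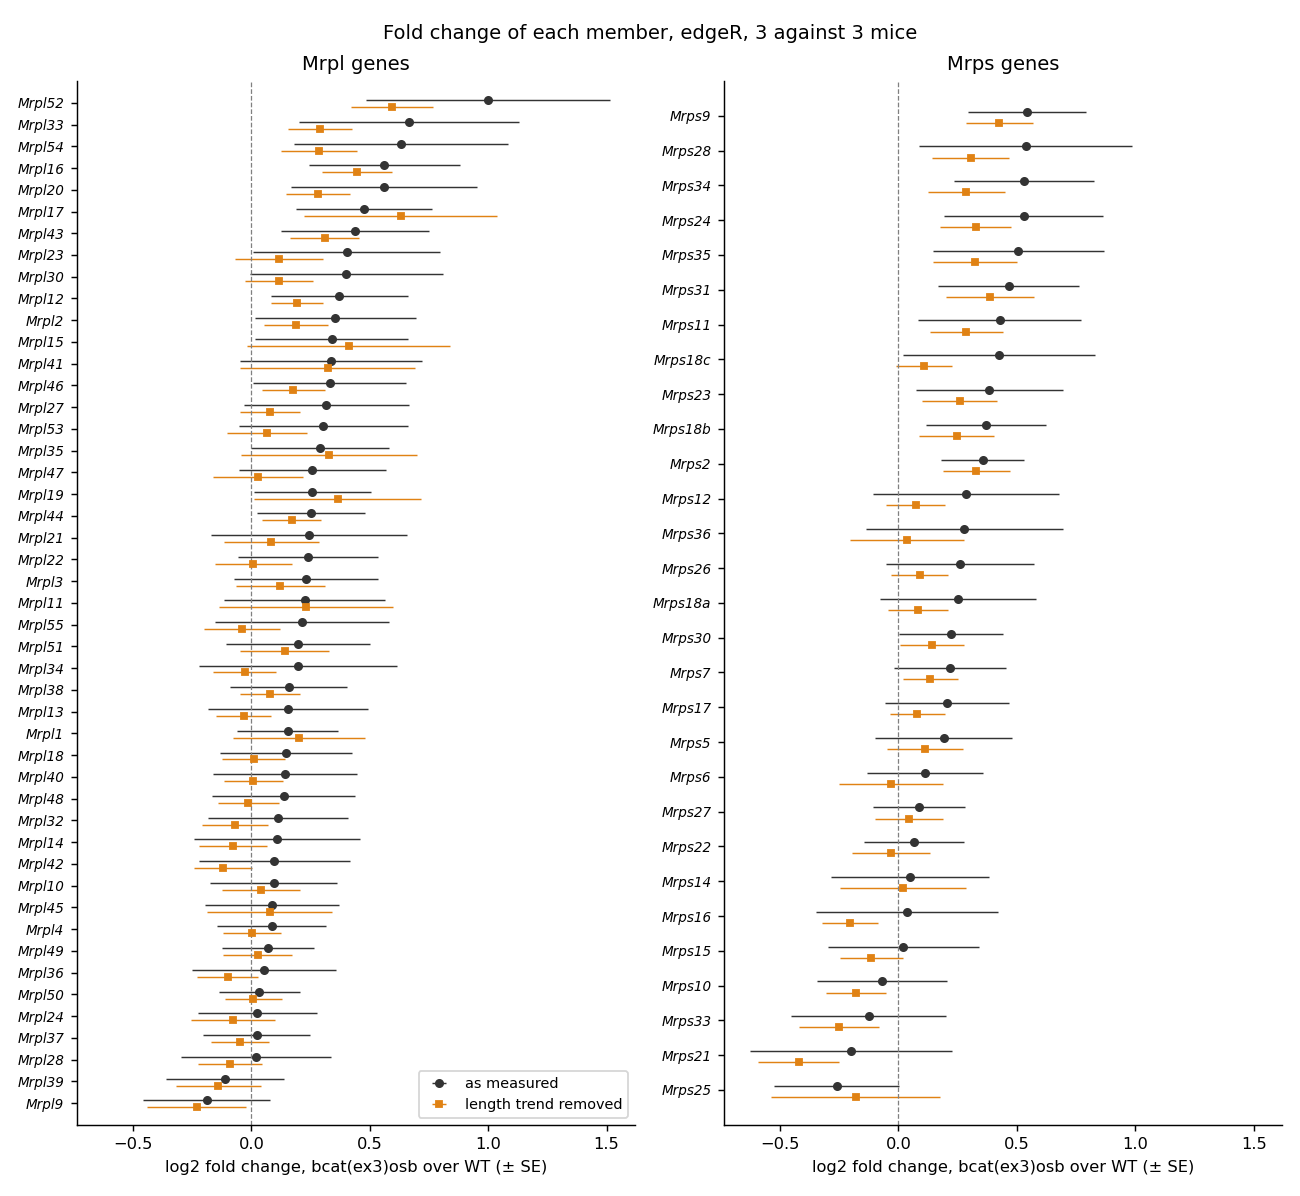
Log2 fold change (bcat(ex3)osb over WT) with its SE for each of the 76 members by edgeR, 3 against 3 mice. Mrpl genes are on the left and Mrps genes on the right. In both panels dark circles are values as measured and orange squares are values with the gene-length trend removed. As measured 70 of 76 lie above 0 and with the trend removed 55 do. No member passed an adjusted p of 0.05 in either fit.

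Most members are short, and the libraries' length trend bears on short genes. Their deposited length had a median of 1053 bases, from 407 (Mrps21) to 6712 (Mrpl17), against 2809 for all genes tested, and 69 of 76 were shorter than that median. The smoothed trend over all genes, read at the members' lengths, had a median of -0.11, 0.51 and -0.17 log2 in bcat(ex3)osb mice 1, 2 and 3, against -0.35, 0.35 and -0.17 in WT mice 1, 2 and 3, as deviations from the 6-library mean. The 6 libraries stood in the same order by this trend as by the members' own medians. Other genes of the same length had medians close to the members' in the shortest classes: below 700 bases the median fold change was 0.35 for the 14 members and 0.31 for all 432 genes, and from 700 to 1000 bases it was 0.24 for 18 members and 0.21 for 578 genes. From 1000 to 1500 bases it was 0.22 for 23 members and 0.10 for 1325 genes, and from 1500 to 2500 bases 0.09 for 14 members and 0.04 for 3095 genes.

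The longest members did not follow the genes of their length. At a deposited length of 2500 bases or more, the 7 members Mrpl17, Mrpl15, Mrpl19, Mrps25, Mrpl35, Mrpl1 and Mrpl11 had a median fold change of 0.26, against -0.06 for 7283 genes. Their median deviation from the 6-library mean was 0.61 in bcat(ex3)osb mouse 2, where all genes of that length stood at -0.26. In WT mouse 1 they stood at -0.44, where all such genes stood at 0.20. In both libraries the long members thus moved with the short members and opposite to other long genes. When the trend was fitted instead on the median length of GENCODE M21 protein-coding transcripts, an alternative chosen after seeing the data, the median fold change of the 76 members was 0.12 with 59 positive. By transcript length the group of long members changes. Mrpl15 (1894 bases) and Mrpl11 (1929 bases) fall below 2500 bases, and others such as Mrps5 (4481 bases) lie above it.

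**Figure D4:**
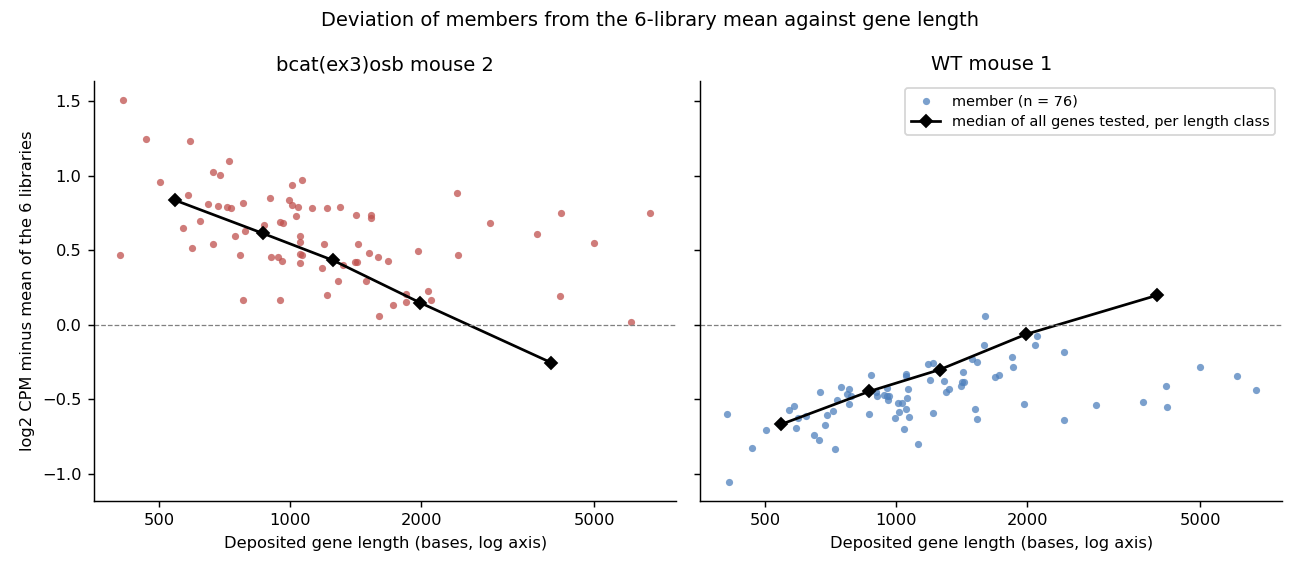
Deviation of each member from its 6-library mean in log2 CPM against deposited gene length in bases (log axis), in bcat(ex3)osb mouse 2 (left) and WT mouse 1 (right). Points are the 76 members and black diamonds the median of all genes tested in 5 length classes. At 2500 bases or more the 7 members stand at a median of 0.61 and -0.44, where all genes stand at -0.26 and 0.20.

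With the trend removed as an offset for each library, the members drew together and the genotype difference became smaller. The per-library medians were 0.09, 0.16 and 0.00 log2 in bcat(ex3)osb mice 1, 2 and 3, against -0.07, 0.06 and 0.01 in WT mice 1, 2 and 3. The groups still overlapped. A member's SD over the 6 libraries had a median of 0.16 instead of 0.42, while that of all genes went from 0.39 to 0.32. The fold change was positive in 55 members and negative in 21, with a median of 0.08, beside 50.4% positive and 0.00 over all genes. edgeR's quasi-likelihood test called 0 members and 1 of 12713 genes (0.00787% higher, 0% lower). At an unadjusted p under 0.05, 3 members were higher and 1 lower, where 5.84% and 4.7% of all genes were.

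With the trend removed, 18 members (23.7%) lay higher in all 3 bcat(ex3)osb mice than in all 3 WT mice, where 9.78% of all genes did. They were Mrps9, Mrps2, Mrps7, Mrps11, Mrps17, Mrps18c, Mrps23, Mrps24 and Mrps31 of the Mrps genes and Mrpl2, Mrpl12, Mrpl16, Mrpl20, Mrpl33, Mrpl43, Mrpl44, Mrpl52 and Mrpl54 of the Mrpl genes. Mrps10, Mrps16, Mrps21 and Mrps33 (5.26%) lay lower in all 3, where 9.59% of all genes did. The 4 lower members were all Mrps genes, and no Mrpl gene separated in that direction. The upward share was not particular to the members. Of 26 mitochondrial protein import genes, which are short too, 6 (23.1%) lay higher in all 3 and 1 (3.85%) lower. Of 7 mitoribosome proteins outside the rule, 0 separated in either direction. On transcript length 10 members separated upward and 3 downward, against 9.65% and 9.37% of all genes. The 10 were Mrps9, Mrps2, Mrps11, Mrps24, Mrps31, Mrpl16, Mrpl20, Mrpl33, Mrpl52 and Mrpl54, and the 3 were Mrps10, Mrps21 and Mrps33.

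By structural class the members differed little. The 29 large-subunit proteins with a bacterial homologue had a median fold change of 0.24 as measured and 0.09 with the trend removed, with 28 and 21 positive. The 19 large-subunit proteins classed as specific to mitochondria had 0.20 and 0.08, with 18 and 15 positive. They include Mrps30 and Mrps18a in spite of their names, and Mrps18a was counted there although it is a homologue of bacterial S18. The 17 small-subunit proteins with a bacterial homologue had 0.22 and 0.11, with 15 and 12 positive. The 9 small-subunit proteins specific to mitochondria had 0.26 and 0.09, with 7 and 6 positive. No class held a called member in either fit, and differences between classes were not tested. Mrpl55 and Mrps36 were not classed.

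Of the small-subunit members, Mrps9 had the smallest p-value. Mrps9, the homologue of bacterial S9 in the head of the small subunit (chromosome 1, 42851233 to 42905683, plus strand), was at 67.3, 107.5 and 62.6 CPM in bcat(ex3)osb mice 1, 2 and 3 and at 49.5, 60.8 and 53.0 CPM in WT mice 1, 2 and 3. The lowest mutant value lay just above the highest WT value. Its log2 fold change was 0.54 ± 0.25 (SE) with an edgeR adjusted p of 0.772, and with the trend removed 0.43 with an adjusted p of 0.365. Mrps2, the bacterial S2 homologue (chromosome 2, 28468066 to 28471178, plus strand), was at 97.4, 97.8 and 89.3 CPM in bcat(ex3)osb and at 76.2, 65.8 and 80.3 CPM in WT mice. It was one of the few members in which mouse 2 did not stand out in either genotype, and the groups did not overlap. Its fold change was 0.36 ± 0.18 (SE), with an edgeR adjusted p of 0.787, and 0.33 with the trend removed.

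Mrps34, a protein specific to mitochondria, was at 87.7, 147.5 and 69.0 CPM in bcat(ex3)osb and at 60.0, 80.7 and 70.0 CPM in WT mice. The groups overlapped, and its fold change was 0.53 ± 0.30 (SE), or 0.29 with the trend removed. It is among the members that share exon bases with other genes. Mrps24, the homologue of bacterial S3, was at 81, 171.6 and 83.8 CPM in bcat(ex3)osb and at 62.1, 98.4 and 72.6 CPM in WT mice. As measured its groups overlapped, and with the trend removed they did not, with fold changes of 0.53 and 0.33.

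Mrps12, the homologue of the bacterial S12 protein of the decoding centre, was at 74.7, 137.6 and 66.2 CPM in bcat(ex3)osb and at 49.6, 116.9 and 62.2 CPM in WT mice. Mouse 2 was high in both genotypes and the groups overlapped, with a fold change of 0.28 ± 0.39 (SE), or 0.07 with the trend removed. Its neighbour Sars2 was at 58.8, 71.5 and 59.4 CPM in bcat(ex3)osb and at 46.8, 50.8 and 55.5 CPM in WT mice. Unlike Mrps12, Sars2 did not overlap between the groups, with a fold change of 0.31 ± 0.19 (SE) and an edgeR adjusted p of 0.852. Mrps11, the bacterial S11 homologue, and its head-to-head partner Mrpl46 had fold changes of 0.43 and 0.33, or 0.29 and 0.18 with the trend removed. Both had their highest level in bcat(ex3)osb mouse 2, at 88.4 and 119.5 CPM, and their lowest in WT mouse 1.

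The 3 mouse homologues of bacterial S18 gave similar values. Mrps18a, which sits in the large subunit, had a fold change of 0.25 ± 0.33 (SE), Mrps18b 0.37 ± 0.25 and Mrps18c 0.42 ± 0.41, and with the trend removed 0.08, 0.24 and 0.11. Mrps30, also of the large subunit, had 0.22 ± 0.22, and Mrps36 had 0.28 ± 0.42 at the lowest CPM of all members.

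Of the members with a negative fold change, Mrps21 stood farthest below 0 once the trend was removed. Mrps21, the bacterial S21 homologue and the shortest member (chromosome 3, 95862634 to 95871519, minus strand), was at 44.8, 67.0 and 34.4 CPM in bcat(ex3)osb and at 32, 94.2 and 41.9 CPM in WT mice. As measured the groups overlapped, with a fold change of -0.20 ± 0.43 (SE). Once the trend was removed, each bcat(ex3)osb mouse lay below each WT mouse, at -0.20, -0.68 and -0.42 against -0.07, 0.15 and -0.07 log2, and the fold change was -0.42 ± 0.17 (SE) with an edgeR adjusted p of 0.446. Mrps33, specific to mitochondria, had -0.13 and -0.25, and Mrps10, the bacterial S10 homologue, had -0.07 and -0.18, as measured and with the trend removed. Mrps25 was at 48.8, 52.2 and 43.0 CPM in bcat(ex3)osb and at 40.5, 77.8 and 54.4 CPM in WT mice, with a fold change of -0.26 ± 0.26 (SE). The WT values enclosed all the bcat(ex3)osb values in Mrps25.

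Of the large-subunit members, Mrpl52 had the largest fold change. Mrpl52, a short protein specific to mitochondria (chromosome 14, 54426909 to 54429756, plus strand), was at 55.6, 178 and 63.3 CPM in bcat(ex3)osb mice 1, 2 and 3 and at 30.1, 77.3 and 41.2 CPM in WT mice 1, 2 and 3. WT mouse 2 lay above 2 of the 3 bcat(ex3)osb mice, so the groups overlapped as measured. The fold change was 1.00 ± 0.51 (SE) with an edgeR adjusted p of 0.801. After removal of the trend the bcat(ex3)osb mice stood at 0.25, 0.87 and 0.59 and the WT mice at -0.03, -0.01 and 0.04 log2, with a fold change of 0.59 ± 0.17 (SE) and an adjusted p of 0.308, the lowest of all members. Leaving out 1 mouse at a time, the fold change ran from 0.27 to 1.47 as measured and from 0.45 to 0.74 with the trend removed.

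Mrpl16, the homologue of bacterial L16 near the peptidyl transferase centre, was at 73.7, 123.6 and 74.7 CPM in bcat(ex3)osb and at 41.2, 84.5 and 58.5 CPM in WT mice. The fold change was 0.56 ± 0.32 (SE) as measured and 0.45 ± 0.15 with the trend removed, where the groups did not overlap. Mrpl33 was at 143.3, 365 and 127.9 CPM in bcat(ex3)osb and at 86.8, 201 and 112.9 CPM in WT mice, with fold changes of 0.67 ± 0.47 (SE) and 0.29 ± 0.14. Mrpl17, the homologue of bacterial L17 and the longest member, had 0.48 ± 0.29 as measured and 0.63 ± 0.41 with the trend removed, and the removal widened its spread. For this gene it raised bcat(ex3)osb mouse 2 to 1.43 and WT mouse 2 to 0.62 log2 above the WT mean.

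The factor-binding stalk of the large subunit was represented by Mrpl12, Mrpl10 and Mrpl11. Mrpl12, the L7/L12 homologue, which is also known to bind the mitochondrial RNA polymerase, was at 164.3, 264.7 and 147 CPM in bcat(ex3)osb and at 117.8, 193 and 134 CPM in WT mice. The WT mouse 2 value lay inside the bcat(ex3)osb range. Its fold change was 0.37 ± 0.29 (SE), or 0.19 ± 0.11 with the trend removed, where its groups did not overlap. Mrpl10, which anchors Mrpl12, had 0.09 ± 0.27 and 0.04 with the trend removed, and Mrpl11, at the base of the stalk, had 0.23 ± 0.34 and 0.23. Mrpl44, which has a ribonuclease III-like fold, had 0.25 ± 0.23 and 0.17. Mrpl45, which ties the ribosome to the inner membrane near the exit tunnel, had 0.09 ± 0.28 and 0.08.

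Mrpl9 and Mrpl39 were the 2 large-subunit members with a negative fold change as measured. Mrpl9, the bacterial L9 homologue, was at 49.6, 51.0 and 39.9 CPM in bcat(ex3)osb and at 51.1, 71.7 and 37.4 CPM in WT mice. Its fold change was -0.19 ± 0.27 (SE), and that of Mrpl39, specific to mitochondria, was -0.11 ± 0.25. WT mouse 2 held the highest value of both genes. Mrpl42 and Mrpl18, near the top in FPKM, had fold changes of 0.10 ± 0.32 and 0.15 ± 0.28. With the trend removed Mrpl42 stood on the other side of 0, at -0.12 ± 0.12, and Mrpl18 at 0.01 ± 0.13.

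**Figure D5:**
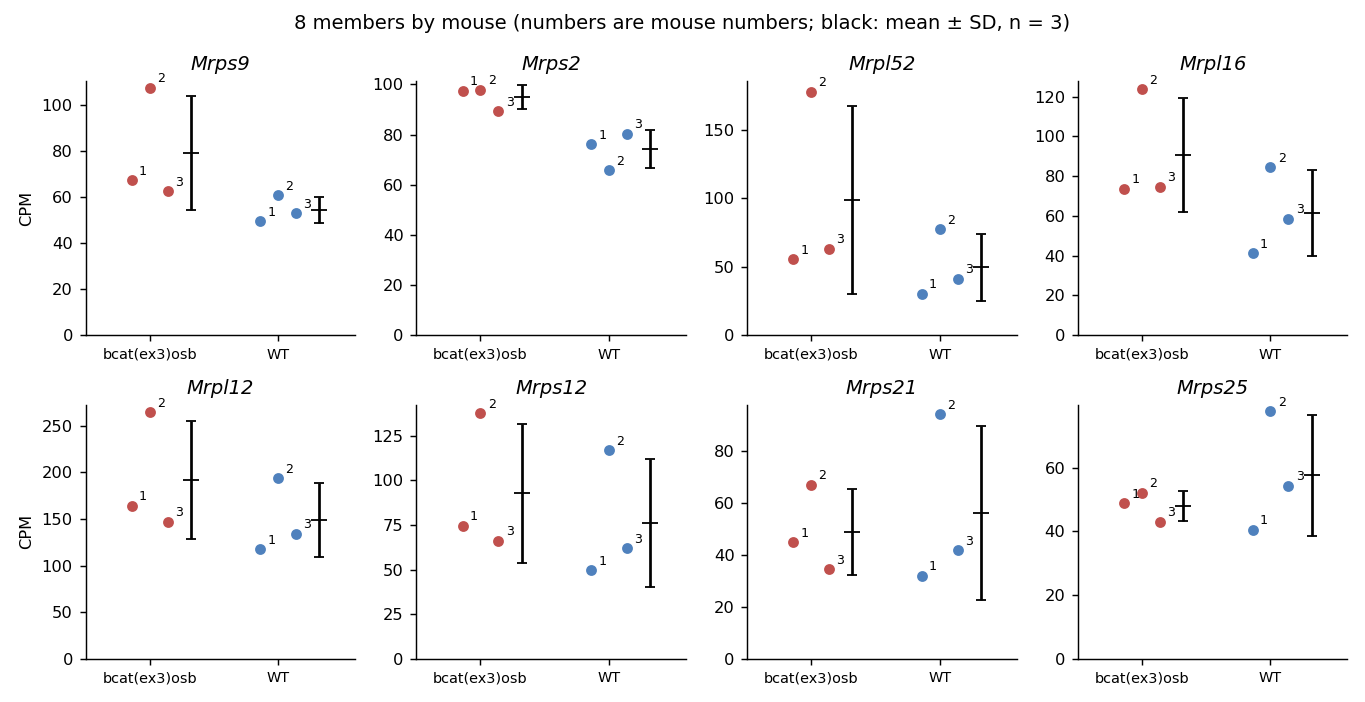
CPM of 8 members in each mouse (points, numbered by mouse) with the mean ± SD of each genotype (n = 3, black), all axes starting at 0. Mrps9 and Mrps2 do not overlap between the genotypes. In every panel except that of Mrps2 the highest point of both genotypes is mouse 2.

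The rest of the mitochondrial translation machinery was described from lists of genes chosen by function. Of 7 mitoribosome proteins whose symbols lie outside the rule, 6 had a positive fold change and 0 were called, with a median of 0.10, or 4 and 0.05 with the trend removed. Among them Mrp63, a large-subunit protein, was at 84.2, 223.6 and 80.8 CPM in bcat(ex3)osb and at 56.8, 113.0 and 72.8 CPM in WT mice, with mouse 2 high in both genotypes. The fold change of Mrp63 was 0.68 ± 0.44 (SE), that of the peptidyl-tRNA hydrolase Ict1 was 0.37 ± 0.33, and that of the small-subunit protein Ptcd3 was -0.26 ± 0.24. Of 26 mitochondrial protein import genes 23 were positive and 0 called, with a median of 0.24, or 20 and 0.13 with the trend removed. These genes are short too, with a median length of 1170 bases. Tomm40, the outer-membrane import channel, was at 213.6, 318.9 and 213 CPM in bcat(ex3)osb and at 153.3, 199.5 and 181 CPM in WT mice, without overlap. Tomm40 had a fold change of 0.48 ± 0.23 (SE), with an edgeR adjusted p of 0.774. Timm8a1 and Timm23, genes of the intermembrane chaperone and the inner-membrane channel, had 0.51 ± 0.28 and 0.52 ± 0.32.

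Genes that act on the mitoribosome were also described by list, and no difference between lists was tested. Of 27 genes for its assembly and rRNA modification 20 were positive and 0 called, with a median of 0.12. Removal of the trend left 18 positive, again with a median of 0.12. Wbscr16 was at 73.1, 83.7 and 76.4 CPM in bcat(ex3)osb and at 61.6, 60.3 and 53.6 CPM in WT mice, without overlap, with a fold change of 0.41 ± 0.17 (SE) and an edgeR adjusted p of 0.746. Tfb1m, which methylates the small ribosomal RNA, had 0.53 ± 0.30, and Trub2, a pseudouridine synthase, had 0.34 ± 0.22. Of 17 translation factors 11 were positive and 0 called, with a median of 0.09, or 9 and 0.06 with the trend removed. Taco1, an activator of cytochrome oxidase translation, and Mtfmt, which formylates the initiator tRNA, did not overlap between the groups, with 0.62 ± 0.34 and 0.36 ± 0.21. Guf1, an elongation factor, had -0.39 ± 0.23.

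The mitochondrial aminoacyl-tRNA synthetases, which charge tRNAs for the same ribosome, were mixed. Of 17 genes 7 were positive and 10 negative, with a median of -0.07 and 0 called, and with the trend removed 7 were again positive, with a median of -0.04. Cars2 was at 34.3, 35.9 and 37.8 CPM in bcat(ex3)osb and at 47.7, 56.6 and 50.1 CPM in WT mice, without overlap. Cars2 had a fold change of -0.52 ± 0.19 (SE), with an edgeR adjusted p of 0.650, and -0.55 with the trend removed. Tars2 also did not overlap as measured, with -0.44 ± 0.17 and an edgeR adjusted p of 0.693. With the trend removed the Tars2 groups overlapped, at a fold change of -0.37. Iars2 had 0.47 ± 0.24 as measured. These genes are longer than the members, with a median of 3077 bases. Of 10 genes for mitochondrial DNA maintenance and transcription 3 were positive and 0 called, with a median of -0.05, or 4 and -0.04 with the trend removed. Top1mt, the mitochondrial topoisomerase, had -0.42 ± 0.24, Polg, the DNA polymerase, -0.33 ± 0.35, and Peo1, the DNA helicase, -0.26 ± 0.24.

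Regulators of mitochondrial gene expression gave the largest fold changes among these lists, in both directions. Of 10 genes 6 were positive and 0 called by edgeR, with a median of 0.09, and 9 were positive with the trend removed, with a median of 0.17 and 0 called. Myc, a growth regulator whose known targets include ribosome and mitochondrial genes, was at 1012, 1011 and 1079 CPM in bcat(ex3)osb and at 639.3, 570.3 and 598 CPM in WT mice, without overlap and with little spread in either group. Its fold change was 0.78 ± 0.16 (SE), with an edgeR adjusted p of 0.335. Over 28 alternatives its adjusted p ran from 0.000185, by DESeq2, the only one that called it, to 1.00. Esrra, a nuclear receptor for oxidative metabolism genes, was at 17.1, 22 and 21.5 CPM in bcat(ex3)osb and at 12.8, 11.6 and 14.4 CPM in WT mice, with 0.64 ± 0.25 (SE). Ppargc1a, the coactivator PGC-1 alpha, was low, at 1.78, 0.0645 and 0.887 CPM in bcat(ex3)osb and at 4.85, 3.51 and 3.02 CPM in WT mice. Ppargc1a had a fold change of -2.04 ± 0.89 (SE), the largest in size among these lists, at these low levels. The groups did not overlap in Esrra or in Ppargc1a, and the edgeR adjusted p was 0.693 and 0.761.

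Other cell types' markers also differed between the mice. The summed level of 6 granulocyte-monocyte markers was 6206 to 11200 CPM in bcat(ex3)osb and 1247 to 3120 CPM in WT mice, and it was highest in bcat(ex3)osb mouse 2. Within WT it was 1247, 3023 and 3120 CPM in mice 1, 2 and 3, whose member medians were -0.39, 0.48 and -0.10. The 6 B cell markers summed to 66.6 to 316 CPM in bcat(ex3)osb and 361 to 593 CPM in WT mice. The 10 LSK markers, which include Kit and Ly6a, summed to 3217 to 4066 CPM in bcat(ex3)osb and 3048 to 5027 CPM in WT mice. Of 6 erythroid markers, 5 were in the count tables and 4 were tested, with Hba-a1 at 0 in all 6 libraries. They summed to 61.8 to 113 CPM in bcat(ex3)osb and 42.2 to 62.3 CPM in WT mice. T cell markers summed to 7.87 to 20.6 CPM in bcat(ex3)osb and 16.1 to 24.5 CPM in WT mice, and macrophage markers to 4.74 to 33.6 CPM and 41.4 to 73.4 CPM. Of the 5 T cell markers 3 were tested, and of the 6 macrophage markers 5 were in the count tables. The part of these differences in the members' values was not tested.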

How the data were processed

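Reads were handled with bcl2fastq 2.17, STAR 2.5.2b, featureCounts 1.5.0-p3 and the build mm10, per the submitters' processing notes. Libraries were made from total RNA with a stranded kit, per the labels' protocols. Which annotation and strand setting were used, and how reads mapping to several places were counted, is not given in the sources used here. For each library the authors deposited counts per gene as whole numbers, and a second table with gene length in bases and FPKM. FPKM as deposited was the count divided by length and library total, to within 0.005.

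Genes with 10 or more counts in 3 or more libraries were compared in edgeR 4.0.16 under R 4.3.3 (TMM scaling, quasi-likelihood F test, two-sided, Benjamini-Hochberg over all genes, threshold 0.05), with genotype as the only term. For the length trend, each library's deviation of log2 CPM (prior count 1) was smoothed on log10 gene length by loess (span 0.5) and entered as an offset. Since the trend is estimated over all genes of both genotypes, it can also take up real change in short genes. DESeq2 1.42.0, limma 3.58.1 (voom, and log2 of FPKM plus 1 or 0.1), other scalings and filters, the mouse number as a block, sex as a term and leaving out each mouse were alternatives. The members and lists were chosen with earlier results of these data known. Named members were the 6 with the smallest unadjusted p per direction, the 6 smallest with the trend removed, the 3 highest and 3 lowest in FPKM and a set of members with known special roles, with up to 3 genes from each other list. Mrps11, Mrpl46, Mrpl28, Sars2 and the members named only in counts of non-overlap or length were named after their values were seen. The procedure was also run on simulated counts, plain or with a length slope in the libraries of bcat(ex3)osb mouse 2 and WT mouse 2. WT mouse 1 was given no slope there, unlike in the data, and the outcome is not reported here. Promoters came from RefSeq GRCm38.p6, and positions and start distances from GENCODE M21 except where RefSeq is named. In GENCODE M21 90.5% of tested genes matched a transcript.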

Additional observations from a re-analysis of the deposited data

How the results depend on the processing

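Under every alternative run, 0 members were called in either direction, also at an adjusted p under 0.10. The median fold change stayed between 0.14 and 0.24 under other scalings, tools, filters and units. Members higher at an unadjusted p under 0.05 numbered 2 by DESeq2 (4.7% of all genes), 3 with the length trend removed (5.84%), 4 with it removed on transcript length (5.63%), 5 without mouse 2 of both genotypes (5.4%) and 3 when that was combined with trend removal (5.7%). With the trend removed 1 member was lower (4.7%). Leaving out 1 mouse, 0 to 3 members were higher at that threshold as measured, where 2.07% to 3.96% of all genes were. With the trend also removed, 2 to 5 were higher, where 3.65% to 6.76% of all genes were. In the same fits 0 to 1 were lower, where 2.66% to 6.29% of all genes were. Members with a positive fold change ran from 24 to 76 as measured and from 46 to 58 with the trend removed. The causes were not tested.

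The labels do not say that the mouse number marks a litter or batch, and whether it pairs the samples was not tested. Deviations of same-numbered mice from their group means correlated at 0.10, 0.34 and 0.07. With the number as a replicate block 17 members were higher at an unadjusted p under 0.05, where 6.95% of all genes were, and 8 with the trend also removed, where 6.84% were, with 0 called. The block's median fold change was 0.22, or 0.08 with the trend removed.

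With sex as a term 16 members were positive, and 35 with the trend removed too. Of the 76 members 54 changed sign with sex as a term, and 35 with sex and the trend. The values below cover only the genes named by rule. With sex as a term those that changed sign were Mrps34 -0.026, Mrpl18 -0.23, Mrpl42 -0.32, Mrpl33 -0.064, Mrpl12 -0.012, Mrpl11 -0.24, Mrpl10 -0.20, Mrps12 -0.20, Mrpl44 -0.050, Mrpl45 -0.46, Mrps18a -0.20, Mrps18c -0.17, Mrps30 -0.11, Mrps36 -0.45, Mrp63 0.000 and Ict1 -0.12. With sex and the trend they were Mrpl18 -0.072, Mrpl42 -0.13, Mrpl1 -0.034, Mrpl19 -0.046, Mrpl11 -0.29, Mrpl10 -0.12, Mrpl45 -0.46, Mrps18a -0.016, Mrps30 -0.044 and Mrps36 -0.26. Mrpl42 was at -0.12 with the trend removed, -0.10 on transcript length and -0.12 with block and trend. Mrpl45 was at -0.015 and -0.016 on log2 FPKM plus 1 and plus 0.1. Without mouse 2 of both genotypes 6 members changed sign, among them the named Mrpl9 0.007, Mrps21 0.093 and Mrpl39 0.045. When the trend was also removed 15 did, among them Mrps25 0.003, Mrpl39 0.031 and Mrpl42 -0.066.

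Leaving out each mouse as measured, from 1 to 46 members changed sign, and the named genes that crossed 0 were Mrps25 from -0.46 to 0.017, Mrpl9 from -0.39 to 0.083, Mrps21 from -0.50 to 0.40, Mrpl39 from -0.26 to 0.16, Mrps33 from -0.40 to 0.20, Mrps10 from -0.30 to 0.19. Mrpl18 ran from -0.044 to 0.41, Mrpl42 from -0.18 to 0.43, Mrpl11 from -0.12 to 0.56, Mrpl10 from -0.12 to 0.35, Mrps12 from -0.11 to 0.73, Mrpl45 from -0.15 to 0.30. Mrps18a ran from -0.041 to 0.58, Mrps18c from -0.059 to 0.82, Mrps36 from -0.12 to 0.61, Ict1 from -0.006 to 0.61. With the trend removed, 14 to 24 members differed in sign from the value as measured, and the named genes among them follow. Without bcat(ex3)osb mouse 1, Mrpl18 was at -0.095, Mrpl42 -0.19 and Mrps36 -0.064. Without bcat(ex3)osb mouse 2, Mrpl42 was at -0.054, Mrpl19 -0.092, Mrpl11 -0.17, Mrpl10 -0.050 and Mrpl45 -0.16. Without bcat(ex3)osb mouse 3, Mrpl42 was at -0.11. Without WT mouse 1, Mrpl18 was at -0.038, Mrpl42 -0.099, Mrpl1 -0.017, Mrpl10 -0.042 and Mrpl45 -0.010. Without WT mouse 2, Mrps25 was at 0.27, Mrpl39 0.048 and Mrpl42 -0.14. Without WT mouse 3, Mrpl42 was at -0.12, Mrpl10 -0.013 and Mrpl45 -0.043.

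The design of 3 against 3 mice limits what can be called: the median SE of a member's fold change was 0.31 as measured and 0.15 with the trend removed. Depth did not limit the members, whose lowest count was 159. Sex was read from counts, and 2 of the 3 bcat(ex3)osb mice differ in it from all WT mice.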
